A study of Macaca mulatta with 304 samples.

Results

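Blood drawn on Day 21 after thoracic irradiation was compared with blood drawn on Day 15 from the same rhesus macaque (Macaca mulatta). Animals were included when the count table held a library of both days, whatever their dose, which gave 48 paired samples from 24 of the 28 animals of the series. Of these, 12 animals belonged to the lower dose (LD) group, irradiated with 9.8 Gy, and 12 to the higher dose (HD) group, irradiated with 10.7 Gy. There were 12 females and 12 males. All were healthy adults of the Chinese sub-strain at the start, all were irradiated in the chest by a linear accelerator, and all received analgesics (tramadol or buprenorphine) over a period that covered both days. Dexamethasone, a synthetic glucocorticoid, was given to animals with rapid breathing, and which animals had received it by Day 15 or Day 21 was not analysed here. No animal of either day was unirradiated, so radiation, repeated bleeding, analgesia and handling cannot be told apart in a change between these days. Each animal also had a library from Day -2, 2 days before irradiation, which is used below to describe levels only.

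Whole blood RNA is a mixture. Reticulocytes, the young red cells that leave the marrow with leftover RNA, carry transcripts of the membrane skeleton, the anion exchanger and heme synthesis, and their number rises when the marrow replaces lost red cells. Neutrophils live for a short time and carry granule and chemotactic receptor transcripts, platelets carry megakaryocyte RNA, and lymphocytes carry antigen receptor and cytotoxic transcripts. In such bulk samples fewer cells of a type and less RNA per cell cannot be told apart.

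Library totals ranged from 4692885 to 15321427 counts on genes. The labels give each library a number. In LD animals all 24 libraries came from the lowest range of numbers (series A), and their totals were 9483381 to 14373516 on Day 15 and 11726680 to 15321427 on Day 21. In HD animals totals were lower on Day 21 (4692885 to 8093159) than on Day 15 (7745747 to 13494438), in 12 of 12 animals. In 8 HD animals the Day 15 library was of series A and the Day 21 library was of another kind (from a higher range of numbers in 5 animals and numbered 0 in 3 animals), and in 4 HD animals both libraries were numbered 0. What these numbers stand for is not given in the sources used here. In those 8 animals library number and day cannot be told apart, so LD values are given beside the pooled values of lists and called genes. Blood markers were present in all 48 libraries, among them MS4A1 of B cells (64.9 to 469 CPM, counts scaled to the library total), CSF3R of neutrophils (428 to 2920 CPM) and ALAS2 of erythroid cells (5550 to 68800 CPM). The lung markers SFTPC and SFTPA1 and the liver marker ALB had at most 2 counts in a library, and SCGB1A1 of airway club cells reached 1.58 CPM. The fibroblast collagens COL1A1 and COL3A1 reached 17.3 and 17.2 CPM.

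Between Day 15 and Day 21, 8 of 19 genes of the red cell membrane and 6 of 26 of red cell maturation fell, and 15 of 71 ribosomal protein genes, the cytotoxic granule protease gene GZMA and other genes that include ATP23, MBOAT2 and FANCL rose. A gene was called changed at an adjusted p of at most 0.05 (edgeR quasi-likelihood test, animal as a block) and a fold change of at least 1.5. Over all 24 animals 143 of 13751 genes tested were called (1.04%), 71 higher on Day 21 (0.516%) and 72 lower (0.524%). Without the fold threshold 4110 genes had an adjusted p of at most 0.05, so most of these differences were below 1.5-fold. The median log2 fold change of all tested genes was 0.04, and 90% of genes lay between -0.31 and 0.33. In the LD animals alone 217 genes were called (1.58%), with 0.814% of tested genes higher and 0.764% lower. The count of 217 was 339 without animal B1504. Of the 143 genes, 97 were also called in LD animals, all 97 in the same direction, which is 67.8% of the pooled list and 44.7% of the LD list. LD animals are part of the pool, so this is not independent support. The split depended on the scaling: the share of called genes that were higher was 49.7% as reported, 38.7% with TMM scaling, 36.7% with DESeq2 and 23.8% with an offset for GC content and transcript length. In LD animals the same shares were 51.6%, 36.7%, 30.4% and 21.3%.

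**Figure D1:**
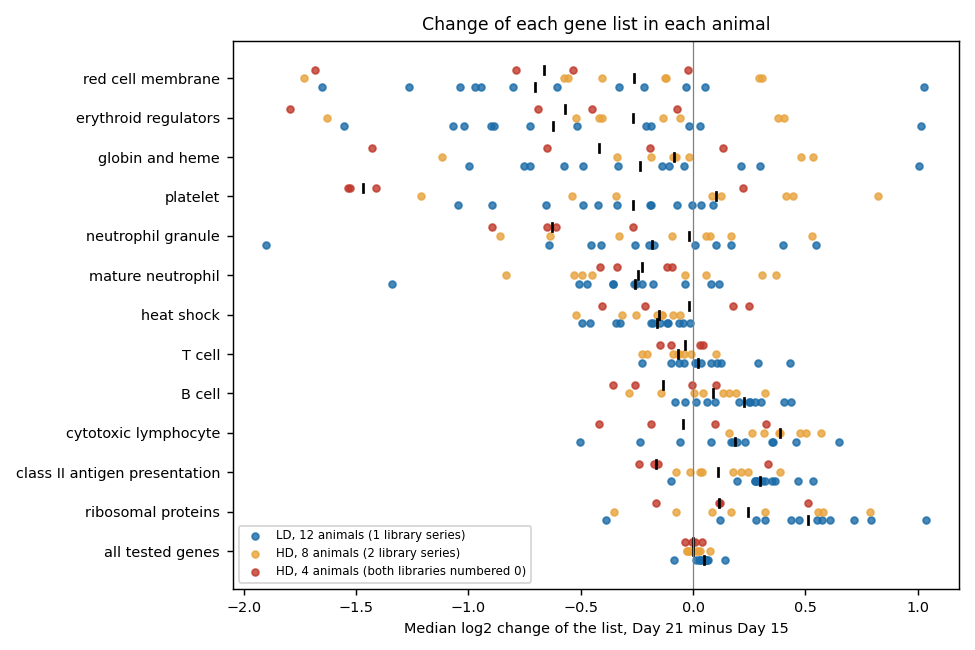
Median log2 change of each gene list in each animal, Day 21 minus Day 15 (x axis), for 12 lists and all tested genes (y axis). Points are animals coloured by dose and library number, and black bars are medians over the animals of each colour. The red cell membrane list lies below 0 in 20 of 24 animals and the ribosomal protein list above 0 in 20 of 24, while all tested genes stay between -0.08 and 0.14.

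Of 19 tested genes of the red cell membrane and its skeleton, 8 fell in all 24 animals and none rose, with a list median of -0.56 (log2 fold change) beside 0.04 for all tested genes. In LD animals 6 of the 19 fell, with a median of -0.55. SLC4A1, the band 3 anion exchanger of the red cell membrane (chromosome 16, 55510407 to 55531543, Mmul_10), fell 1.66-fold (log2 fold change -0.73 ± 0.16 SE, adjusted p = 0.0014, LD -0.76, lower in 20 of 24 animals). In LD animals its level was 704.6 to 7170 CPM on Day 15 and 397.4 to 7008 CPM on Day 21. In HD animals it was 786.8 to 24540 CPM on Day 15 (median 3164) and 515 to 7770 CPM on Day 21 (median 1726). The ranges of the days overlapped in both groups, and the change was within animals: 10 of 12 LD animals and 10 of 12 HD animals had less on Day 21.

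ANK1, the ankyrin that ties band 3 to the membrane skeleton (chromosome 8, 42230677 to 42474012), fell by 0.68 on the log2 scale (± 0.16 SE, adjusted p = 0.0022, LD -0.60) and was lower in 19 of 24 animals. EPB41, DMTN, XK, KEL and AQP1 fell by 0.59 to 0.62. In LD animals EPB41, DMTN and XK fell by 0.74, 0.65 and 0.77, and KEL (-0.58) and AQP1 (-0.56) were under the fold threshold. They encode protein 4.1, dematin, the XK and Kell blood group proteins and a water channel. Not every member of the list moved this way: GYPC, a glycophorin gene, had a log2 fold change of 0.05 (adjusted p = 0.69).

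Among 26 tested genes of red cell maturation and its regulators, 6 fell and none rose (median -0.49), and in LD animals 8 fell (median -0.51). TRIM58, a ubiquitin ligase of late erythroblasts (chromosome 1, 1156804 to 1180524), fell 1.64-fold (-0.71 ± 0.16 SE, adjusted p = 0.0015). In LD animals its level was 685 to 2641 CPM on Day 15 (median 1353) and 288 to 2783 CPM on Day 21 (median 796), and 11 of 12 animals had less on Day 21. In HD animals its log2 fold change was -0.50 ± 0.20 SE, which did not pass (adjusted p = 0.086). UBE2O, a ubiquitin enzyme that clears proteins from reticulocytes, fell by 0.75 ± 0.18 SE (adjusted p = 0.0028, LD -0.74), and SELENBP1, a selenium-binding oxidase abundant in red cells, fell by 0.72 ± 0.15 SE (adjusted p = 0.00087, LD -0.74). EPOR, the erythropoietin receptor gene, fell by 0.65 (LD -0.63), as did BCL2L1, a survival gene of erythroblasts (LD -0.65). E2F2, a cell cycle factor, fell by 0.61, and its LD value of -0.53 was under the fold threshold. KLF1, an erythroid master transcription factor, had -0.52 ± 0.17 SE, under the fold threshold (adjusted p = 0.019), and GATA1 had -0.45. TFRC, the transferrin receptor gene that marks the youngest reticulocytes, had 0.24 (adjusted p = 0.10).

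Of the 15 tested globin and heme synthesis genes none was called in all 24 animals (median -0.20, LD -0.22), and in LD animals FECH, the last enzyme of heme synthesis, and HBQ1, a theta globin gene, fell by 0.68 and 0.75. HBB, the beta globin gene, had a log2 fold change of 0.26 ± 0.24 SE over all animals (adjusted p = 0.42) and was higher on Day 21 in 14 of 24. Its direction depended on the animals, with -0.04 in LD animals, -0.9995 in the 4 HD animals with both libraries numbered 0 (adjusted p = 0.12) and 1.20 in the 8 HD animals whose library number changed with the day (adjusted p = 0.014). Its LD median was 853 CPM on Day 15 and 741 CPM on Day 21. Globin genes have near-identical copies, so how reads were shared among them is uncertain.

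The size of the red cell change varied widely between animals. The median change of the membrane list ran from -1.73 to 1.03 (log2), below 0 in 20 of 24 animals. It was below 0 in 10 of 12 LD animals, in 10 of 12 HD animals and in 4 of 4 animals with both libraries numbered 0. The largest rise, 1.03, was in LD animal B1504, and HD animals B2002 and B2007 had rises of 0.29 and 0.31. The list median was below 0 in 11 of 12 females (median -0.60) and 9 of 12 males (median -0.55).

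**Figure D2:**
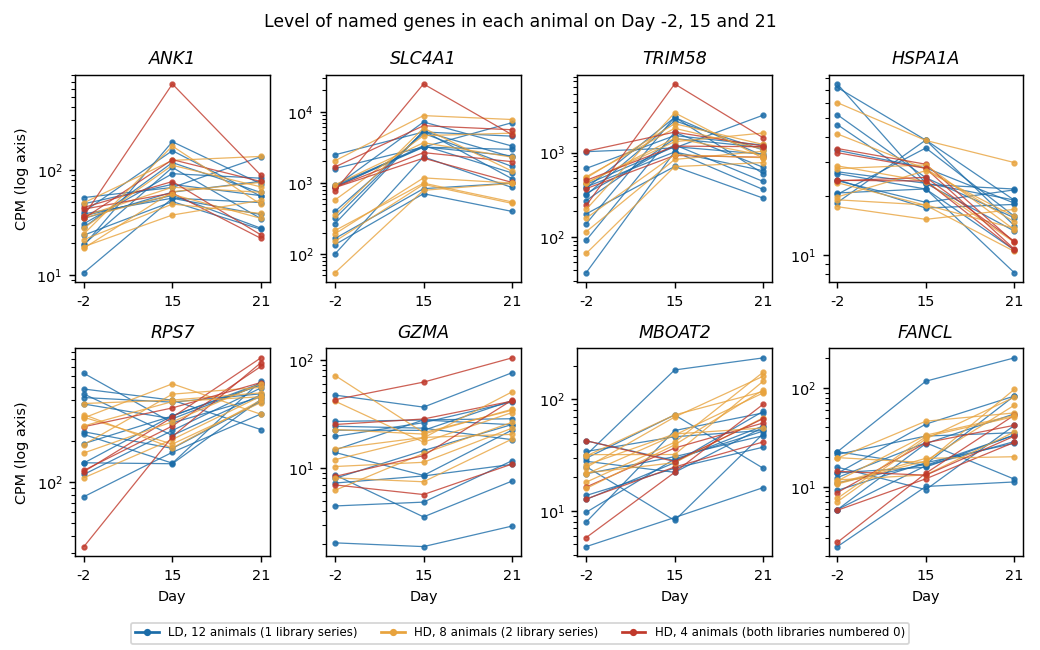
Level of 8 named genes in each of the 24 animals on Day -2, Day 15 and Day 21 (x axis), in CPM on log axes (y axis), with lines joining the samples of an animal. ANK1, SLC4A1 and TRIM58 peak on Day 15 in most animals, while MBOAT2 and FANCL are higher again on Day 21.

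Against each animal's own Day -2 sample, Day 15 was the highest of the days compared for red cell genes. In LD animals the mean level of the red cell membrane list stood 0.83 ± 0.69 (log2, SD, n = 12) above Day -2 at Day 3, then 1.25 ± 0.66 (Day 6), 1.16 ± 0.91 (Day 9), 1.90 ± 0.85 (Day 15) and 1.41 ± 0.52 (Day 21). In HD animals the last 3 of these days had 0.76 ± 0.72, 1.93 ± 0.91 and 1.40 ± 0.78. In 8 HD animals the library number changed between Day 15 and Day 21, so there day and library number cannot be told apart. On Day 21 the list was still above Day -2 in 24 of 24 animals, by 0.07 to 2.71. These levels against Day -2 were not tested.

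**Figure D3:**
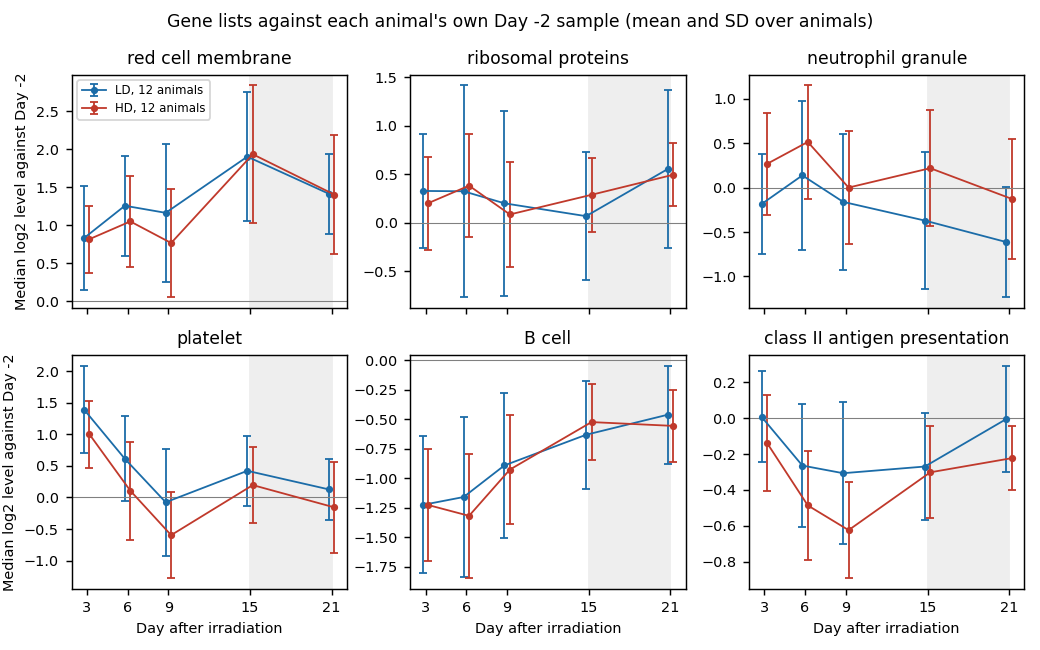
Median log2 level of 6 gene lists against each animal's own Day -2 sample (y axis) from Day 3 to Day 21 (x axis), as mean and SD over 12 LD and 12 HD animals, with the compared interval shaded. Red cell membrane genes are highest on Day 15 in both groups (1.90 in LD and 1.93 in HD), and B cell genes stay below 0 throughout. In 8 HD animals the library number changed between Day 15 and Day 21.

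Of 71 ribosomal protein genes tested, 15 rose and none fell in all 24 animals (median 0.35 beside 0.04 for all genes), and 70 of 71 had a positive log2 fold change. In LD animals 22 rose and the median was 0.45, and in HD animals 7 rose and the median was 0.27. The list was above 0 in 11 of 12 LD and 9 of 12 HD animals. RPS7, a protein of the small ribosomal subunit (chromosome 13, 105196811 to 105202663), rose 1.76-fold (0.82 ± 0.13 SE, adjusted p = 6.4e-05, LD 0.86, higher in 22 of 24 animals). Its level in LD animals was 135.7 to 399 CPM on Day 15 (median 255) and 242 to 552 CPM on Day 21 (median 440). In HD animals it was 177 to 526 CPM on Day 15 (median 287) and 314 to 817 CPM on Day 21 (median 474). RPS15A rose by 0.72 ± 0.11 SE (adjusted p = 5e-05, LD 0.72). RPS27A rose by 0.69 ± 0.12 SE (LD 0.76), but at a mean of 8.80 CPM, and its annotated gene is no longer than its transcript (541 bases). Ribosomal proteins have many processed copies in primate genomes, so the sharing of reads among copies is uncertain. RPLP0, a protein of the ribosomal stalk, had 0.26 ± 0.08 SE over all animals and 0.43 ± 0.09 SE in LD animals, under the fold threshold in both.

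Transcript length and GC content moved with the changes, but not in the same way in LD and HD animals. Across genes, the rank correlation of the change with length was -0.32 in LD and -0.04 in HD animals. With GC content it was 0.18 in LD and -0.54 in HD animals. The median log2 fold change in LD animals was 0.15 for the 2751 genes with the shortest transcripts (162 to 1724 bases) and -0.05 for the 2749 with the longest. With an offset for GC content and length the LD median of the ribosomal protein list was 0.26 instead of 0.45, and 5 of its genes instead of 22 passed. Over all 24 animals 2 instead of 15 passed. There RPS7 kept its call (0.68), and RPS15A (0.55) and RPS27A (0.49) were under the fold threshold. The offset corrects GC content and length at once, and the part of each in this rise was not tested. The median of the red cell membrane list moved little with the same offset, from -0.56 to -0.56 over all animals and from -0.55 to -0.58 in LD animals. Its genes called lower went from 8 to 6 over all animals and from 6 to 9 in LD animals.

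Against Day -2, ribosomal protein genes of LD animals stood at 0.07 ± 0.66 (log2, SD, n = 12) on Day 15 and 0.55 ± 0.81 on Day 21. In 17 of 24 animals the red cell membrane list was lower and the ribosomal protein list higher on Day 21, in 9 LD and 8 HD animals. Each list alone moved that way in 20 of 24 animals, so this joint count needs no link between them. A link was not tested. Levels are relative to the scaled size of a library, so changes of 1 group against another cannot be told apart from changes in amount.

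The largest rise over all animals was that of CENPH, a kinetochore protein gene (1.17, adjusted p = 0.00037, higher in 21 of 24 animals, mean 4.68 CPM), which was not called in LD animals (0.89, adjusted p = 0.052) and was named after its values were seen. ATP23, a mitochondrial peptidase and assembly factor of ATP synthase (chromosome 11, 57530195 to 57544580), rose 2.05-fold (1.04 ± 0.13 SE, adjusted p = 1.1e-05, LD 0.89) and was higher in 23 of 24 animals. Its LD median was 15.1 CPM on Day -2, 24.6 CPM on Day 15 and 50.5 CPM on Day 21. MBOAT2, a membrane acyltransferase (chromosome 13, 99764122 to 99912168), rose 2.02-fold (1.01 ± 0.15 SE, adjusted p = 4.7e-05, LD 0.72). In LD animals it was 8.21 to 184 CPM on Day 15 (median 28.7) and 16.2 to 235.3 CPM on Day 21 (median 52.2), higher in 11 of 12 animals. In HD animals it was 22.2 to 72.5 CPM on Day 15 (median 37.8) and 41.5 to 175 CPM on Day 21 (median 102), higher in 12 of 12.

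FANCL, a ubiquitin ligase of the Fanconi anaemia DNA repair pathway (chromosome 13, 50524108 to 50608400), rose 1.98-fold (0.99 ± 0.15 SE, adjusted p = 5e-05, LD 0.83, higher in 23 of 24 animals). TMEM56, a transmembrane protein gene at 702 CPM on average, rose by 0.96 ± 0.16 SE (adjusted p = 0.00016, LD 0.73), from an LD median of 374 CPM to 637 CPM. Unlike the red cell membrane genes, ATP23, MBOAT2, FANCL and TMEM56 did not peak on Day 15: their LD and HD medians were lowest on Day -2, higher on Day 15 and highest on Day 21.

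SPC25, a kinetochore protein, rose by 0.92 ± 0.18 SE (adjusted p = 0.00063, LD 0.86), and TIPIN, a replication fork protein, by 0.80 ± 0.12 SE (adjusted p = 6.4e-05, LD 0.73). PRIM1, the catalytic subunit of primase, rose by 0.77 ± 0.15 SE (adjusted p = 0.00066, LD 0.74). RANBP17, an importin-like protein gene, rose by 0.84 ± 0.15 SE (LD 0.83) at a mean of 2.30 CPM. Of the list of 40 replication and mitosis genes, which holds none of these, none was called in either direction. Its median was 0.11 (LD 0.07), and MKI67, the proliferation marker, had -0.28 ± 0.07 SE, under the fold threshold. MT1E, a metallothionein gene, rose by 0.75 ± 0.10 SE (adjusted p = 9.1e-06, LD 0.81) from an LD median of 3.49 CPM to 6.54 CPM. With the offset for GC content and length MT1E had 0.57 (LD 0.55), under the fold threshold. Metallothionein genes lie in a family of near copies, so its reads may be shared.

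**Figure D4:**
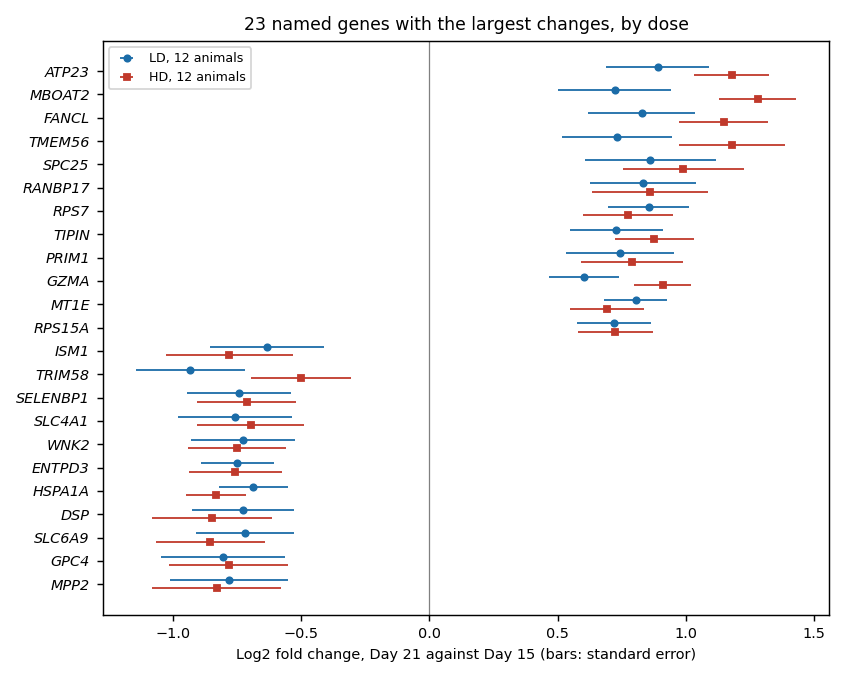
Log2 fold change of 23 named genes (y axis), Day 21 against Day 15 (x axis), fitted apart in 12 LD and 12 HD animals, with bars for the standard error. The signs are the same at both doses for all 23 genes, which the choice of these genes favours. MBOAT2 shows 0.72 in LD and 1.28 in HD, and TRIM58 shows -0.93 in LD and -0.50 in HD.

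Other falls were of genes outside the red cell lists. MPP2, a membrane scaffold protein gene, fell by 0.81 ± 0.18 SE (adjusted p = 0.0017, LD -0.78), from an LD median of 16.3 CPM to 8.87 CPM. Its LD median on Day -2 was 1.99 CPM. SLC6A9, a glycine transporter gene, fell by 0.78 ± 0.15 SE (adjusted p = 0.0005, LD -0.72), with LD medians of 11.5, 57.8 and 31.03 CPM for Day -2, Day 15 and Day 21. GPC4, a glypican gene, fell by 0.80 ± 0.17 SE (LD -0.80). These 3 genes had the same order of days as the red cell membrane genes, lowest on Day -2 and highest on Day 15. DSP, the desmoplakin gene, fell by 0.77 ± 0.16 SE (LD -0.73), with an LD median of 4.30 CPM on Day 15 and 2.64 CPM on Day 21.

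ENTPD3, an enzyme that degrades extracellular nucleotides, fell by 0.75 ± 0.12 SE (adjusted p = 7.9e-05, LD -0.75) and was lower in 23 of 24 animals. Its LD medians were 19.5 CPM on Day -2, 10.8 CPM on Day 15 and 8.41 CPM on Day 21. WNK2, a kinase gene, fell by 0.74 ± 0.14 SE (LD -0.73) and ISM1, a secreted protein gene, by 0.70 ± 0.17 SE (LD -0.63), at means of 3.303 and 2.01 CPM. HSPA1A, the inducible Hsp70 chaperone (chromosome 4, 137671024 to 137685835), fell 1.69-fold (-0.75 ± 0.09 SE, adjusted p = 9.1e-06, LD -0.69), from an LD median of 23.2 CPM to 17.0 CPM and from an HD median of 25.9 CPM to 12.6 CPM. Its near-identical neighbour copy makes the assignment of its reads uncertain.

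Of the heat shock list of 15 genes none was called, with a median of -0.12 (LD -0.18). Of the 15, 7 had an adjusted p of at most 0.05 and a negative log2 fold change. Of all 13751 tested genes, 4110 had such an adjusted p with either sign. HSP90AB1, a constitutive Hsp90 chaperone, was lower in 24 of 24 animals (-0.41 ± 0.05 SE, adjusted p = 3.2e-06, LD -0.39). It stood at 436 to 646 CPM in LD animals on Day 15 and 364 to 506 CPM on Day 21.

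CD177, a neutrophil surface glycoprotein gene (chromosome 19, 43427669 to 43445856), fell by 0.69 ± 0.12 SE (adjusted p = 0.00023, LD -0.73) and was the 1 called of 16 neutrophil granule genes. Its LD range was 9.81 to 120 CPM on Day 15 (median 29.2) and 5.75 to 36.5 CPM on Day 21 (median 21.8). The median of the granule list was -0.31 (LD -0.37). Of 18 mature neutrophil genes none was called (median -0.28, LD -0.35). Of the 18, 10 had an adjusted p of at most 0.05 with a negative sign, beside 4110 of all 13751 tested genes with either sign. Among the 10 were PADI4 (-0.56, LD -0.49), CXCR2 (-0.51, LD -0.50) and CSF3R (-0.45, LD -0.40), the G-CSF receptor gene. S100A8, a calcium-binding protein of neutrophils and monocytes, had 0.11 ± 0.12 SE. The list of 21 platelet genes had a median of -0.32 (LD -0.34) with none called over all animals, and 3 fell in LD animals, ITGB3 (-0.64), GP1BA (-0.63) and GP1BB (-0.71), which encode integrin and glycoprotein Ib chains. PPBP, an abundant platelet chemokine gene, had 0.10 ± 0.09 SE. In the 4 HD animals with both libraries numbered 0, 15 of the 21 platelet genes fell, where 13.1% of all genes were called and calls moved with GC content (median 55.6% for the platelet list). There the list median was between -1.54 and -1.41 in 3 animals and 0.22 in B2503.

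GZMA, the granzyme A protease of cytotoxic T and NK cells (chromosome 6, 53401482 to 53408723), rose 1.70-fold (0.76 ± 0.10 SE, adjusted p = 9.1e-06, higher in 22 of 24 animals). In LD animals it was 1.88 to 36.5 CPM on Day 15 (median 18.4) and 2.91 to 75.8 CPM on Day 21 (median 23.7). In HD animals it was 5.69 to 62.1 CPM on Day 15 (median 18.15) and 10.9 to 103.9 CPM on Day 21 (median 33.3), higher in 12 of 12. KLRB1, the CD161 receptor gene, rose by 0.65 ± 0.10 SE (adjusted p = 6e-05), and in LD animals alone its 0.53 ± 0.12 SE was under the fold threshold. These were 2 of 23 cytotoxic lymphocyte genes, with a list median of 0.20 (LD 0.14). GZMB (0.11 ± 0.07 SE) and PRF1 (-0.01) did not pass. The list median was -0.08 in the 4 HD animals with both libraries numbered 0. It was 0.37 in the 8 HD animals whose library number changed with the day. With the offset for GC content and length GZMA had 0.56 and KLRB1 0.46, both under the fold threshold. The list median with the offset was 0.13 (LD 0.03). CD36, a scavenger receptor gene of monocytes and platelets, rose by 0.68 ± 0.10 SE (adjusted p = 4.2e-05, higher in 23 of 24 animals) at a mean of 3.11 CPM. Its values in LD animals (0.58) and with the offset (0.51) were under the fold threshold. CD14 of monocytes had -0.41 ± 0.08 SE (LD -0.33), also under it. The medians of the monocyte and oxidative phosphorylation lists were 0.08 (LD 0.06) and 0.07 (LD 0.17). COX7B, a subunit of cytochrome c oxidase, was the 1 called of 39 oxidative phosphorylation genes (0.69 ± 0.12 SE, LD 0.63). With the offset it had 0.43, under the fold threshold. NDUFA1 of the same list had -0.03 ± 0.10 SE.

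None of 12 class II genes was called, with a median of 0.19. Of the 12, 7 had an adjusted p of at most 0.05 with a positive sign, the largest MAMU-DRA (0.30). Of all 13751 tested genes, 4110 had such an adjusted p with either sign. In LD animals 10 of the 12 class II genes had such an adjusted p with a positive sign (median 0.26). There 3536 of all 13751 tested genes had it with either sign. The class II list was higher on Day 21 in 11 of 12 LD animals, and so was the median of all tested genes in 11 of 12. In HD animals the class II median was 0.10, the list was higher in 7 of 12 animals, and it was lower in 3 of the 4 with both libraries numbered 0. The 24 B cell genes had a median of 0.08 (0.16 in LD and -0.03 in HD) with none called. MS4A1, the CD20 gene, had 0.30 and CD79A, an antigen receptor chain gene, 0.03 ± 0.06 SE. Against Day -2, B cell genes of LD animals stood at -1.23 ± 0.58 (log2, SD, n = 12) on Day 3, -0.63 ± 0.46 on Day 15 and -0.46 ± 0.42 on Day 21. Those of HD animals stood at -0.52 ± 0.33 on Day 15 and -0.56 ± 0.30 on Day 21.

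The remaining lists had no called gene over all 24 animals and medians between -0.27 and 0.04. T cell genes had a median of 0.01 (LD 0.07), p53 target genes 0.01 (LD 0.02), inflammatory cytokine genes 0.03 (LD 0.02), circadian clock genes 0.04 (LD 0.06) and immediate early genes 0.00 (LD 0.05). Class I antigen processing genes had -0.02 (LD -0.01), TGF-beta pathway genes -0.03 (LD -0.09), plasma cell genes -0.04 (LD -0.02), glucocorticoid-responsive genes -0.08 (LD -0.06) and naive lymphocyte genes -0.12 (LD -0.11). Basophil genes had -0.14 (LD -0.16), complement genes -0.17 (LD -0.10), glycolysis and hypoxia genes -0.20 (LD -0.10) and eosinophil genes -0.27 (LD -0.13). Interferon response genes had -0.06 over all animals. The median was -0.18 in LD animals (the list lower in 9 of 12) and 0.01 in HD animals (the list higher in 9 of 12). Among HD animals it was -0.28 in the 4 with both libraries numbered 0, where the list was higher in 2. In the 8 HD animals whose library number changed with the day it was 0.13. CDKN1A, the p53-induced cell cycle inhibitor, had -0.03 ± 0.07 SE, FKBP5, a glucocorticoid-induced gene, -0.02 ± 0.07 SE, and IFIT1, an interferon-induced gene, -0.06 ± 0.11 SE. The p53 target list stood at 0.46 ± 0.17 above Day -2 on Day 3 in LD animals and at 0.07 ± 0.11 on Day 15.

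The next comparison asked whether the change differed between doses. In HD animals alone 1.61% of genes were called, of which 84 genes fell. The test of the difference itself called 72 genes over all 24 animals (0.524%), and 1 gene of the lists was among them. That was HBA, an alpha globin gene with near-identical copies, whose difference, HD minus LD, was 1.42 ± 0.38 SE (adjusted p = 0.028, LD -0.50, HD 0.92). The median difference of a list, HD minus LD, ran from -0.25 for ribosomal proteins and -0.25 for class II, through -0.21 for B cell genes and 0.01 for the red cell membrane, to 0.22 for interferon response genes. Of the 72 genes, 32 had a more positive change in HD animals, with a median GC content of 37.5%, and 40 a more negative change, with a median GC content of 60.2%. Depth was lower on Day 21 in 12 of 12 HD animals and in 4 of 12 LD animals. The library number changed with the day in 8 HD animals, so for these genes and lists dose and library cannot be told apart.

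In the 4 HD animals with both libraries numbered 0, 1801 genes were called (13.1%), 947 higher with a median GC content of 40.3% and 854 lower with a median GC content of 59.3%. With the offset for GC content and length 458 genes were called (3.33%). The share of genes called was 13.1% with all 4 animals, 1.62% without animal B2005, 1.85% without B2003, 23.57% without B2503 and 9.105% without B2504. Across genes, the rank correlation of the change with GC content was -0.60 over these 4 animals, between -0.60 and -0.47 in B2003, B2005 and B2504 and 0.00 in B2503. It was 0.18 over LD animals, with -0.17 to 0.43 in single animals. These are descriptions over genes, which are not independent. The difference between 12 LD and 4 HD animals was called for 1657 genes (12.1%) and for 212 genes with the offset. All 12 LD animals are of series A and the 4 HD animals are numbered 0, so here too dose and library number cannot be told apart. The part of GC content in these counts was not tested further.

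**Figure D5:**
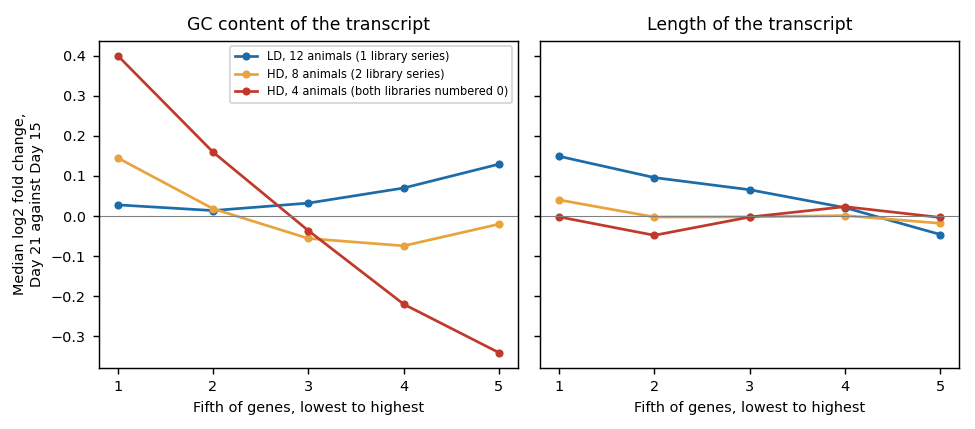
Median log2 fold change, Day 21 against Day 15 (y axis), of genes in 5 bins of transcript GC content (left) and transcript length (right), from the lowest to the highest (x axis), in 12 LD, 8 HD and 4 HD animals by library number. In the 4 HD animals with both libraries numbered 0 the medians run from 0.40 in the lowest GC bin to -0.34 in the highest, against 0.03 and 0.13 in LD animals.

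By sex, no gene was called by edgeR for a difference in the change between females and males (0%), with 516 genes at an unadjusted p under 0.05 and the lowest adjusted p at 0.99. DESeq2 also called 0 genes, with 546 at an unadjusted p under 0.05.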

How the data were processed

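Per the deposited sample labels, whole blood total RNA of each animal was sequenced on each day. According to the methods and the submitters' processing notes, the authors removed ribosomal RNA, trimmed paired reads with cutadapt 2.10, aligned them with STAR 2.7.6a to Mmul_10 and assigned them to genes with Subread 2.0.1. The authors deposited whole counts of 21070 genes and log2 values of 16730 genes scaled by the upper quartile. In each of the 48 libraries genes with 1 count value share 1 log2 value. Whether counting used strand is not given in the sources used here.

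Genes with at least 3 counts in 80% of the 304 samples were tested (13751). The quasi-likelihood test of edgeR 4.0.16 (R 4.3.3) was run with upper quartile scaling and Benjamini-Hochberg adjustment. The animal was a block, since the labels give the animal of each sample. Deviations of an animal's 2 samples from their group means correlated at 0.33 to 0.76, and 23 of 24 Day 15 samples correlated best with their own Day 21 sample. No 2 libraries held identical counts. Levels per animal are CPM, and list levels are log2 CPM with a prior count of 2. Each SE is the size of a log2 fold change divided by the square root of its F. Gene positions, lengths and GC content are those of the Mmul_10 RefSeq annotation, the longest transcript per gene. Levels are not per length, so they are compared within a gene only.

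The genes named were the first tested gene of each of 29 hand-written lists, up to 3 largest called changes per list, the 12 largest increases and 12 largest decreases called over all and in LD animals (at least 2 CPM, same direction in at least 20 of 24 animals, no LOC symbol), and up to 5 genes by adjusted p called for a difference between doses in animals whose library series did not change with the day or between sexes. Further list members given with values (among them EPB41, GATA1, PADI4 and MAMU-DRA), CENPH and HBA were chosen after their values were seen. The comparison, the lists and the rule were chosen with earlier results of these data known.

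Alternatives were TMM scaling, DESeq2 1.42.0, other filters, the deposited log2 values with limma 3.58.1, no replicate block, thinned counts, subsets by library number, library number as a covariate, no fold threshold and leaving out each animal. The offset for GC content and length, and 3 settings for the HD libraries numbered 0, were added after the data were seen. Counts were simulated with 200 of 13751 genes changed by a fold of 2. From these edgeR recovered 200 with the 24 animals, 194 with the 12 LD animals and 152 with the 4 HD animals. False calls were 0, 1 and 7. The simulated counts held no shift with GC content, length or library number, so they cannot show how such shifts affect the calls. Figures used Python 3.11.15, pandas 2.3.3 and matplotlib 3.10.9. Survival and clinical signs were not analysed here, and 2 genes of the red cell membrane list are not reported here by name. Library totals were 4692885 to 15321427 counts, so low genes are least precise in the shallow HD libraries of Day 21.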

Additional observations from a re-analysis of the deposited data

Results flagged for a closer look

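A difference between the doses in the change from Day 15 to Day 21 was called for 72 genes over all 24 animals, and for 1657 genes when HD animals were restricted to the 4 with both libraries numbered 0. LD libraries are all of series A, so dose and library number cannot be told apart in the latter. The 5 genes with the lowest adjusted p in that test were all more positive in HD animals, by 1.21 for DR1, a repressor of transcription, 1.32 for NUDT3, a nudix hydrolase, 1.02 for ACTR2, an actin-nucleating protein, 1.19 for ANP32E, a histone chaperone, and 0.90 for CCNG2, a cyclin (log2, HD minus LD, adjusted p of 0.00022 to 0.00031). With the offset for GC content and length the 5 differences were 0.62, 1.40, 0.69, 0.73 and 0.63. In the 8 HD animals of 2 library series the log2 fold change of these genes was between -0.23 and 0.23, which was not tested against the 4 animals.

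Among the 31 genes named for their change, 3 had an HD animal far from the others of the 4 with both libraries numbered 0, and each time it was B2504. TIPIN had a log2 change of 2.09 there, GPC4 of -1.95 and ENTPD3 of -0.087. Chance flags about 1 in 20 such groups.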

How the results depend on the processing

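The count of 143 genes over all 24 animals lay within 1.5 times under TMM scaling, DESeq2, the stricter filter, the log2 values, thinning, the offset and the 8 HD animals of 2 library series. It was 217 with no filter on low counts, 296 in the 16 animals of 1 library series, 300 with library series as a covariate and 4110 without the fold threshold. Leaving out single animals gave 120 to 183. The fit with no replicate block, which ignores the pairing, stayed within 1.5 times.

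For LD animals the count of 217 was 75 without the block, 3536 without the fold threshold and 157 to 339 without single animals. For HD animals 1.61% of tested genes were called, against 0.611% without the block, 0.415% with the offset, 0.851% in the 8 animals of 2 library series, 13.1% in the 4 with both libraries numbered 0 and 15.5% without the fold threshold. In these 4 animals it was 3.33% with the offset and 1.62% to 23.57% without single animals. The difference between the 12 LD animals of series A and the 4 HD animals numbered 0 fell from 1657 to 212 genes with the offset, and the difference between sexes was called for 2 genes with no filter and for 1 in LD animals. Apart from the smaller samples the causes were not tested. No call of a named gene reversed its direction among 64 genes and 8 settings (512 values). The settings reuse the same samples, and the largest changes were chosen for 1 direction over all and in LD animals, which favours this result. Of the 512 values 17 lost the call, 7 of them with the offset and 6 without the block. A further 3 gained the call, all of KLF1. Some genes that were not called did change sign. Among them were HBB (0.26 over all animals, -0.04 in LD animals) and S100A8 (0.11 over all animals, -0.06 with the offset). All 174 list medians moved by less than the spread between animals. That spread is wide beside many of the medians, so this cannot show that they are stable. Over all animals the offset moved the ribosomal protein median from 0.35 to 0.21 and the oxidative phosphorylation median from 0.07 to -0.04.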
